A study of Mus musculus with 8 samples.

Results

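tRNA-derived fragments (tRFs) of 4 cytosolic tRNAs, tRNA-Cys-GCA, tRNA-Ser-GCT, tRNA-Ser-GGA and tRNA-Phe-GAA, were described in islet macrophages of diabetic and control mice. A fragment was included when the deposited table listed it under at least 1 of these names, which gave 28 of the 144 distinct sequences in the table and 3755 of its 18250 counts. The 4 tRNAs were chosen as a group from the per-library counts themselves, because 5' fragments of the group had been seen to rise and fall together across the libraries. This shared pattern is therefore given here as a description without a test. No 5' fragment was listed under tRNA-Ser-GGA, so 5' sums of the 4 tRNAs come from the other names. Of the 2450 counts in these 5' fragments, tRNA-Cys-GCA held 1953. The study profiled small RNAs of macrophages carrying Cd45, F4/80, Cd11b and Cd11c that were sorted by FACS from pancreatic islets. The islets came from 8-week-old male db/db mice, whose leptin receptor does not work and which grow obese and hyperglycemic, and from age-matched wild type mice. The db/db strain was BKS.Cg-Dock7m+/+LeprdbJ and the wild type strain BKS.Cg-Dock7m+/+. Each genotype had 4 preparations, 1 library each. The paper describes islets pooled across mice for sorting, with fewer db/db than wild type mice in a pool. Its methods and legends differ on the numbers. Pool size thus also differed with genotype. The leptin receptor defect is carried by every cell of a db/db mouse, and obesity, hyperglycemia and genotype cannot be told apart in this comparison. The table holds no mRNA, so the sorted cell type could not be checked against its markers.

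A tRNA folds into a cloverleaf with the D arm near its 5' end, the anticodon arm in the middle and the T arm near its 3' end, and the conserved bases of the D arm help hold its folded shape. Nucleases cut tRNAs in the D, anticodon or T loop, and a cut in or near the D loop leaves a short 5' fragment, whereas a pair of cuts leaves an internal one. Such fragments are known to bind Argonaute or other RNA-binding proteins and to change with cellular stress. tRNA-Cys-GCA, tRNA-Ser-GCT, tRNA-Ser-GGA and tRNA-Phe-GAA are named by the amino acid they carry and by the anticodon, given in DNA letters.

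Of the 28 fragments, 12 were 5' fragments, which begin at position 1 or 2 of the mature tRNA, and 16 were internal fragments with a first position between 3 and 10. None came from the 3' end. The sequences below are those that carry the largest counts or show how the internal fragments relate to the 5' ones. Capitals mark the stretch from position 8 to position 15, the linker and first bases of the D arm. As far as a fragment covers it, it is the same for tRNA-Cys-GCA, tRNA-Phe-GAA and tRNA-Ser-GGA and different for tRNA-Ser-GCT.
5' Cys-GCA of 25 nt: gggggtaTAGCTCAGtggtagagca
5' Cys-GCA of 19 nt: gggggtaTAGCTCAGtggt
internal Cys-GCA from position 7: aTAGCTCAGtggtagag
5' Ser-GCT of 24 nt: gacgaggTGGCCGAGtggttaagg
5' Ser-GCT of 18 nt: gacgaggTGGCCGAGtgg
internal Ser-GCT from position 8: TGGCCGAGtggttaagg
internal Ser-GCT from position 7: tTGGCCGAGtggttaagg
5' Phe-GAA of 24 nt: gccgaaaTAGCTCAGttgggagag
internal Phe-GAA/Ser-GGA from position 9: AGCTCAGttgggagag
internal Phe-GAA/Ser-GGA from position 7: tTAGCTCAGttgggagag

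tRNA-Cys-GCA gave 9 of the 5' fragments, 8 of which began with 5 guanines and the other with 4. The 8 share their start and differ in their last position, which runs from 19 to 26. tRNA-Ser-GCT gave 5' fragments of 18 and 24 nt, and tRNA-Phe-GAA gave 1 of 24 nt. All 12 of the 5' fragments were listed under a single tRNA name. The mouse RefSeq annotation of GRCm38.p6 holds 56 genes for tRNA-Cys-GCA, 48 of them on chromosome 6. It holds 8 genes for tRNA-Ser-GCT, 4 of them on chromosome 13, and 7 genes for tRNA-Phe-GAA spread over chromosomes 5, 10, 13, 14 and 19. Which of these genes gave a fragment cannot be read from the table, since copies share the sequence.

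The internal fragments were shorter and less specific. They ended between positions 22 and 25, and 15 of the 16 were 16 to 18 nt long. All 9 fragments listed under tRNA-Ser-GGA, which has 1 gene on chromosome 11 in the same annotation, were also listed under tRNA-Phe-GAA, and their bases from position 8 on are those of the tRNA-Phe-GAA 5' fragment as far as it reaches. No fragment was listed under tRNA-Ser-GGA alone, so no value of its own can be given for this tRNA. All 4 internal fragments of tRNA-Ser-GCT were shared with tRNA-Leu-TAA, tRNA-Ser-AGA, tRNA-Ser-CGA and tRNA-Ser-TGA, and 1 of the 3 internal fragments of tRNA-Cys-GCA was shared with tRNA-Ala-TGC. Of the 16 internal sequences, 10 lie wholly within one of the 5' sequences and 6 do not, among them both sequences printed above that start at position 7 with a lower-case t. In a search of the GENCODE M21 transcript sequences, 8 of the 16 internal fragments and 1 of the 12 5' fragments also had an exact match.

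The table held between 1477 and 4567 counts per library, and levels are given as a percent of these listed counts. Listed counts are the counts of retained tRNA fragments, not the sequencing depth, and intervals and limits of detection below cover counting error only. Together the 28 fragments took 14.1%, 12.0%, 33.6% and 33.7% of listed counts in wild type libraries 1 to 4 and 27.3%, 8.05%, 6.08% and 5.96% in db/db libraries 1 to 4. Wild type 3, wild type 4 and db/db 1 stood apart from the other 5 libraries, and results are given below with and without them. Wild type 3 held the most listed counts, followed by db/db 1 with 2521, while wild type 4 with 2009 held fewer than wild type 1 with 2182. These totals include the 28 fragments themselves, and whether the pattern goes with sequencing depth was not tested.

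The 5' fragments of tRNA-Cys-GCA made up 0.733%, 1.08%, 22.4% and 22.4% of listed counts in wild type libraries 1 to 4. In db/db libraries 1 to 4 they made up 14.8%, 0.810%, 1.22% and 2.05%. The highest library was 30.6 times the lowest, and the high and low libraries were found in both genotypes. The 95% Wilson intervals of the 3 high libraries ran from 13.5% to 24.3% and those of the other 5 from 0.452% to 2.83%, so counting error was far smaller than the gap.

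The 5' fragments of tRNA-Ser-GCT had the same 3 libraries on top. They took 0.642%, 0.406%, 4.77% and 3.24% of listed counts in wild type libraries 1 to 4 and 2.90%, 0.607%, 0.277% and 0.234% in db/db libraries 1 to 4. The lowest values rested on 4 to 6 counts.

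The 24-nt 5' fragment of tRNA-Phe-GAA was rarer, with 100 counts in all. It took 0.275%, 0.271%, 1.20% and 0.896% of listed counts in wild type libraries 1 to 4. In db/db it took 0.635% in library 1 and 0.0585%, a single count, in library 4. It was not detected in db/db libraries 2 and 3, where a limit of 3 counts is 0.152% and 0.166% and the upper bounds of the 95% Wilson intervals are 0.194% and 0.212%.

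**Figure D1:**
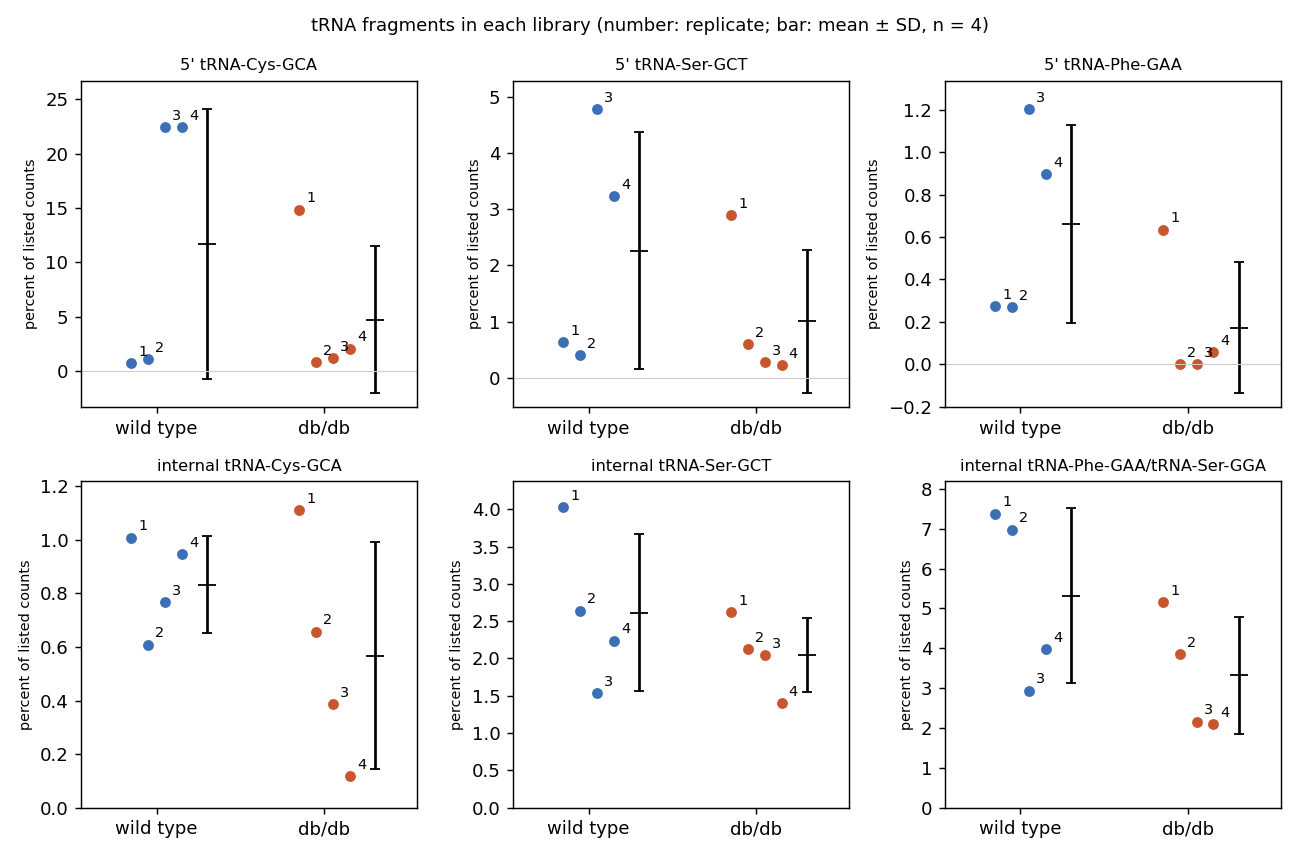
Percent of listed counts (y axis) in each library by genotype (x axis) for the 5' fragments (top) and internal fragments (bottom) of tRNA-Cys-GCA, tRNA-Ser-GCT and tRNA-Phe-GAA, the last with tRNA-Ser-GGA. Points are libraries numbered by replicate and bars are mean ± SD of 4 libraries; in the top row wild type 3, wild type 4 and db/db 1 lie above the other 5, and in the bottom row they do not.

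The pattern held fragment by fragment among the 5' ends. In each of the 12 5' fragments, wild type 3, wild type 4 and db/db 1 were all higher than each of the other 5 libraries. Among the other 51 5' fragments of the table this was so for 11, among the other 51 internal fragments for 1, among the 14 3' fragments for 1 and over the whole table for 26 of 144. Of the 12, 9 start with 4 or more guanines, and among the 7 other 5' fragments that start this way it was so for 4. The pattern was neither shared by all 5' fragments nor limited to these tRNAs. The counts of the 12 are those on which the choice of tRNAs rests, so their number is not evidence for the pattern.

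The most abundant 5' fragment, the 23-nt form of tRNA-Cys-GCA, had 4, 3, 276 and 79 counts in wild type libraries 1 to 4 and 95, 4, 5 and 7 counts in db/db libraries 1 to 4. The 25-nt form had 7, 1, 200 and 150 counts in wild type, against 81, 7, 3 and 13 in db/db. The 18-nt fragment of tRNA-Ser-GCT had 12, 4, 178 and 47 counts in wild type, against 60, 5, 2 and 2 in db/db. In all of these fragments 3 libraries held most of the counts and the genotypes overlapped.

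**Figure D2:**
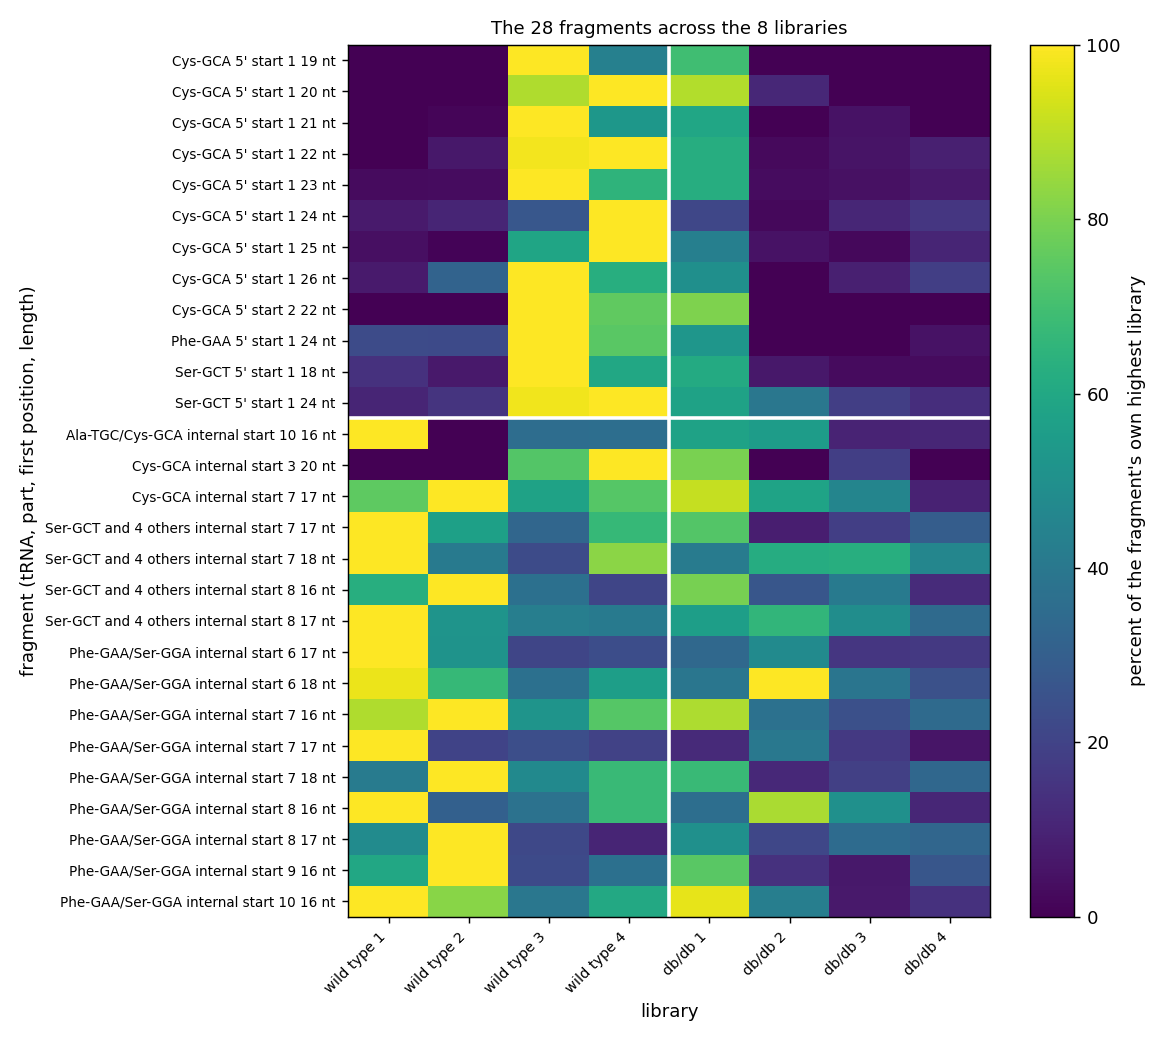
Each row is 1 of the 28 fragments, named by tRNA, part of the tRNA, first position and length, and each column is a library; the colour is the percent of listed counts relative to the fragment's own highest library. The 12 5' fragments above the white line share their 3 high columns, and below it only the tRNA-Cys-GCA fragment that starts at position 3 has those same 3 columns above the other 5.

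As a sum the internal fragments did not follow the 5' ones. Those listed under tRNA-Phe-GAA and tRNA-Ser-GGA, the largest internal group with 9 sequences, took 7.38%, 6.97%, 2.93% and 3.98% of listed counts in wild type libraries 1 to 4 and 5.16%, 3.85%, 2.16% and 2.11% in db/db libraries 1 to 4. Within wild type, libraries 1 and 2 were above libraries 3 and 4, the reverse of the tRNA-Phe-GAA 5' fragment. Within db/db, library 1 was the highest for both.

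The 4 internal fragments listed under tRNA-Ser-GCT and its 4 co-listed tRNAs took 4.03%, 2.64%, 1.53% and 2.24% in wild type, against 2.62%, 2.13%, 2.05% and 1.40% in db/db. In wild type, libraries 1 and 2 were again above libraries 3 and 4, the reverse of the tRNA-Ser-GCT 5' fragments. In db/db both ran in the same order, from library 1 down to library 4.

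The 3 internal fragments of tRNA-Cys-GCA were few, at 1.01%, 0.609%, 0.766% and 0.946% in wild type, against 1.11%, 0.658%, 0.387% and 0.117% in db/db. The one that starts at position 3 and is 20 nt long had 0, 0, 10 and 6 counts in wild type, against 6, 0, 1 and 0 in db/db, and was the only one of the 16 internal fragments in which the 3 libraries stood above the other 5. The fragment from position 7 had 10, 9, 16 and 9 counts in wild type, against 14, 7, 5 and 1 in db/db. This second fragment lies within 5 of the tRNA-Cys-GCA 5' sequences and yet its percent of listed counts in wild type 3 was below that in wild type 1 and 2.

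Summed over the 4 tRNAs, the 5' fragments varied 20.03-fold between libraries and the internal fragments 3.43-fold. The 5' sum was 1.65%, 1.76%, 28.4% and 26.6% in wild type libraries 1 to 4 and 18.4%, 1.42%, 1.49% and 2.34% in db/db libraries 1 to 4. The internal sum was 12.4%, 10.2%, 5.23% and 7.17% in wild type, against 8.89%, 6.63%, 4.59% and 3.63% in db/db. Across the 8 libraries, 4 lay on the same side of both medians of these sums, while for tRNA-Cys-GCA, tRNA-Ser-GCT and tRNA-Phe-GAA taken singly 6 of 8 did. Within wild type none of the 4 libraries did, and within db/db 2 of 4 did. Because the 8 libraries formed separate high and low clusters of 5' level, no correlation coefficient was computed, and 4 libraries per genotype are too few for one.

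A percent of listed counts falls for all other fragments when the 5' fragments take up to 28.4% of the total. Scaled instead to listed counts other than these 12 5' fragments, the internal sum still varied 3.40-fold, and again none of the 4 wild type libraries lay on the same side of both medians. For single tRNAs the number of wild type libraries on the same side of both medians went with this scaling from 2 to 4 of 4 for tRNA-Cys-GCA and from 0 to 2 for tRNA-Ser-GCT, and stayed at 0 for tRNA-Phe-GAA. Among the db/db libraries it was 2, 4 and 2 of 4, and over all 8 libraries 6 for each tRNA, on both scales. Other 5' fragments with the same high libraries stayed in the rescaled total, among them the tRNA-Leu-TAG sum at up to 10.5% of listed counts. No scaling without these was run, so the numbers of libraries above hold only for the 2 scales given.

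**Figure D3:**
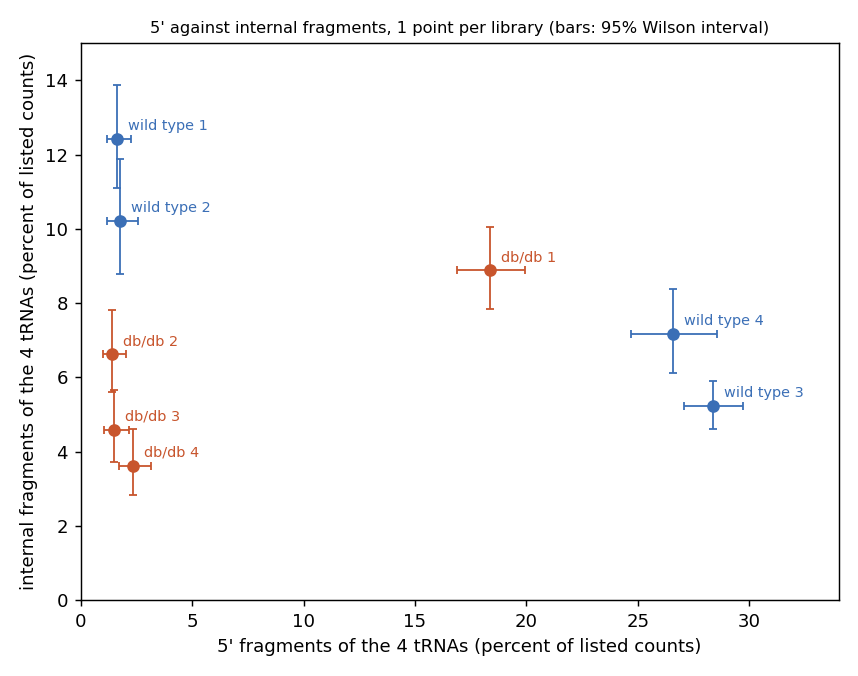
The sum of the 5' fragments (x axis) against the sum of the internal fragments (y axis) of the 4 tRNAs, both as percent of listed counts, with 1 point per library and 95% Wilson intervals. The 3 libraries with 18.4% to 28.4% of 5' fragments have 5.23% to 8.89% of internal ones, inside the range of the other 5 libraries, which is 3.63% to 12.4%.

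The number of 5' counts per internal count differed widely between libraries. For the 4 tRNAs together it was 0.133, 0.172, 5.42 and 3.71 in wild type libraries 1 to 4 and 2.07, 0.214, 0.325 and 0.645 in db/db libraries 1 to 4. Between the tRNAs the balance differed too. tRNA-Cys-GCA had more 5' than internal counts in 7 of 8 libraries, from 1.23 to 29.2 5' counts per internal count, the exception being wild type 1 with 0.727. tRNA-Phe-GAA had fewer in all 8, from 0 to 0.410, and tRNA-Ser-GCT lay between, from 0.135 to 3.11. These internal counts include fragments of the co-listed tRNAs.

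Of the 10 internal sequences that lie within a 5' fragment, the tRNA-Cys-GCA fragment from position 3 had the 3 high libraries of the 5' ends and the other 9 did not. These 9, which start at position 6 or later, took 7.75%, 6.84%, 3.33% and 3.78% of listed counts in wild type, against 5.71%, 4.20%, 3.04% and 2.16% in db/db. The 6 that do not lie within one took 4.67%, 3.39%, 1.69% and 3.09% in wild type, against 2.94%, 2.43%, 1.49% and 1.46% in db/db. Both sets had wild type 1 as the highest and db/db 4 as the lowest library.

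The start of the internal tRNA-Phe-GAA/tRNA-Ser-GGA fragments also varied. Over all libraries 18.7% of their counts started at position 6, 27.4% at position 7, 26.1% at position 8, 16.9% at position 9 and 10.9% at position 10. Starts at position 9 or 10 took 25.5%, 34.95%, 24.6% and 28.8% in wild type, against 40.8%, 15.8%, 7.69% and 27.8% in db/db. The wild type libraries lay within the db/db range, and the db/db 3 value rested on 3 of 39 counts, with a 95% Wilson interval of 2.65% to 20.3%.

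The tRNA-Cys-GCA 5' ends showed how far libraries with many counts can differ in length. Forms of 19 to 21 nt made up 27.9% of 1023 counts in wild type 3 (95% Wilson interval 25.2% to 30.7%), 16.4% of 451 in wild type 4 (13.3% to 20.1%) and 27.8% of 374 in db/db 1 (23.5% to 32.6%). In the other 5 libraries they made up 0% to 18.2% of 16 to 35 counts. The 25-nt form made up 33.3% in wild type 4, 19.6% in wild type 3 and 21.7% in db/db 1. In their length profile wild type 3 was closer to db/db 1 than to the other high wild type library.

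**Figure D4:**
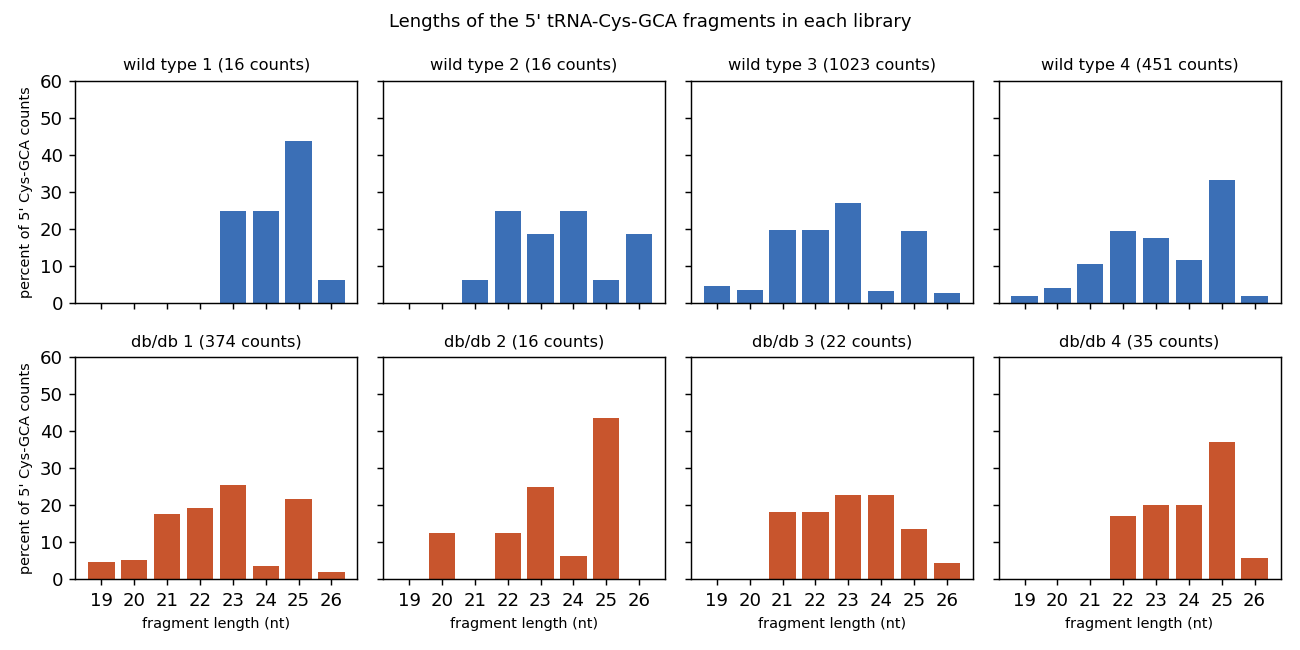
Percent of the 5' tRNA-Cys-GCA counts (y axis) at each fragment length in nt (x axis), 1 panel per library with its number of counts. Wild type 3, wild type 4 and db/db 1 rest on 374 to 1023 counts and show forms of 19 to 26 nt; the other 5 rest on 16 to 35.

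The count-weighted mean length of these tRNA-Cys-GCA ends was 24.3, 23.6, 22.6 and 23.2 nt in wild type libraries 1 to 4 and 22.6, 23.4, 23.1 and 23.9 nt in db/db libraries 1 to 4. It averaged 23.4 ± 0.703 nt in wild type and 23.3 ± 0.552 nt in db/db (SD, n = 4 each; two-sided exact permutation test, p = 0.714, adjusted p = 0.714 over 3 lengths). For tRNA-Ser-GCT the mean length was 18.9, 20, 19.1 and 19.7 nt in wild type, against 19.1, 21.5, 21.6 and 21 nt in db/db, a difference of 1.39 nt that did not pass (exact permutation p = 0.114, adjusted p = 0.343). The 3 db/db libraries above all wild type ones held 4 to 12 counts. Without db/db 1 the difference was 1.96 nt, and its exact permutation p of 0.0286, adjusted p 0.0857, was the smallest that 4 against 3 libraries can give.

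Between the genotypes, all 12 5' fragments and all 16 internal ones had a lower mean percent in db/db, as had 90 of the 144 fragments of the table. The 5' pattern behind the choice of tRNAs is high in wild type 3, wild type 4 and db/db 1. Lower 5' means in db/db largely follow from that choice and are no evidence of a genotype difference. Also, 9 of the 12 are forms of the tRNA-Cys-GCA end. Without those libraries the difference of the 5' sum was 0.0448 points. None of the 28 had non-overlapping genotypes, against 11 of 144, 7.64%, over the whole table. With edgeR's quasi-likelihood test, the threshold was an adjusted p below 0.1 with more than a 2-fold change, and 6 of 44 fragments tested passed, 13.6%, all higher in db/db. Of the 28 fragments, 6 had enough counts to be tested and none passed at an adjusted p below 0.1, nor at an unadjusted p under 0.05. DESeq2 with its default settings called none of the 28 either. The median log2 fold change of the 6 was -0.41, against 0.06 over all 44 tested. With all 144 fragments in the fit it was -0.81 over the 28 and -0.11 over all.

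The largest of the tested differences were in the 5' fragments. The 25-nt tRNA-Cys-GCA fragment averaged 3.06% of listed counts in wild type and 1.12% in db/db (log2 fold change -1.60, SE 1.28, edgeR adjusted p = 0.497). The 18-nt tRNA-Ser-GCT fragment averaged 1.76% and 0.715% (log2 fold change -1.45, SE 1.11, edgeR adjusted p = 0.497). For both, the SE was smaller than the change but a large part of it. When the fit included whether a library number was among the first 4, the tRNA-Cys-GCA value was -0.24 and the tRNA-Ser-GCT value -1.11. The internal tRNA-Phe-GAA/tRNA-Ser-GGA fragments of 16 nt from positions 8 and 9 had log2 fold changes of -0.21 and -0.60, and the 2 tested internal tRNA-Ser-GCT fragments of -0.01 and 0.00.

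Summing fragments of the same names and part of the tRNA gave 33 sums with enough counts, of which 1, or 3.03%, passed. Of the 7 sums with 1 of the 4 tRNAs, 5 were tested and none passed at an adjusted p below 0.1 or an unadjusted p under 0.05. DESeq2 with its default settings called none. The log2 fold change was -1.85 for 5' tRNA-Cys-GCA (SE 1.38, edgeR adjusted p = 0.369), -1.66 for 5' tRNA-Ser-GCT (SE 1.09, edgeR adjusted p = 0.369) and -0.84 for internal tRNA-Phe-GAA/tRNA-Ser-GGA (SE 0.45, edgeR adjusted p = 0.308). The internal sums of tRNA-Cys-GCA and of tRNA-Ser-GCT with its co-listed tRNAs stood at -0.89 and -0.55, against a median of -0.30 over the 33 sums. Unlike the shares and ratios, the internal tRNA-Cys-GCA sum of these fits leaves out the fragment shared with tRNA-Ala-TGC. That fragment is a sum of its own, which had too few counts to be tested and stood at -0.60 without the filter. With the library-number term the 5' tRNA-Cys-GCA sum was -0.63.

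These calls depended on db/db 1. Without it, calls were common over the whole table, at 16 of 34 sums (47.1%) and 21 of 53 fragments (39.6%). Then 4 of the 5 tested sums of the 4 tRNAs passed as lower in db/db, the 5' tRNA-Cys-GCA sum at -3.69 on the log2 scale (edgeR adjusted p = 0.0783), 5' tRNA-Ser-GCT at -3.08 (edgeR adjusted p = 0.0690), internal tRNA-Cys-GCA at -1.53 (edgeR adjusted p = 0.0783) and internal tRNA-Phe-GAA/tRNA-Ser-GGA at -1.14 (edgeR adjusted p = 0.0690). The 18-nt tRNA-Ser-GCT fragment was the only one of 7 tested that passed, at -3.47 (edgeR adjusted p = 0.0286). The library left out, db/db 1, was the only db/db library high in the 5' pattern by which these tRNAs were chosen. The lower 5' values without it therefore follow from that choice and are no evidence of a genotype difference. The libraries left out together next were also picked from these same counts. Without wild type 3, wild type 4 and db/db 1 together, the 5' tRNA-Cys-GCA sum turned to 0.68, and the internal tRNA-Phe-GAA/tRNA-Ser-GGA sum passed at -1.23 (edgeR adjusted p = 0.0955). Of its fragments the one from position 9 passed at -2.01 (edgeR adjusted p = 0.0536) and the one from position 10 passed as well. In that setting 1 of 4 tested sums and 2 of 9 tested fragments of the 4 tRNAs passed, both shares below those of the whole table, 14 of 32 sums (43.8%) and 27 of 63 fragments (42.9%).

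The shares gave the same picture. The 5' sum averaged 14.6% ± 14.9 in wild type and 5.90% ± 8.32 in db/db (SD, n = 4 each; two-sided exact permutation test, p = 0.286, adjusted p = 0.392 over 8 shares). The internal sum averaged 8.76% ± 3.19 and 5.93% ± 2.33 (exact permutation p = 0.229, adjusted p = 0.392). Without the 3 libraries the internal difference went from -2.83 to -6.37 points and that of internal tRNA-Phe-GAA/tRNA-Ser-GGA from -2.001 to -4.47 points, both at an exact permutation p of 0.1 (adjusted p = 0.200), while the 5' difference was 0.0448 points. The 6 shares of single tRNAs had exact permutation p-values from 0.171 to 0.400 and adjusted p-values of 0.392 and 0.400. The log2 ratio of 5' to internal counts averaged -0.27 ± 2.82 in wild type and -0.85 ± 1.42 in db/db (exact permutation p = 0.771, adjusted p = 0.943 over 4 ratios). None of these differences passed an adjusted p of 0.1. The smallest p that an exact permutation of 4 against 4 libraries can give is 0.0286. A single share at that p, with the other p-values as found, would not pass after adjustment over 8 shares. Without the 3 libraries, which were picked from these same counts, the exact permutation p cannot fall below 0.1. An adjusted p below 0.1 was therefore not possible there, and not passing decides nothing.

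The labels number the libraries from 17 to 24, with wild type 1 and 2 and db/db 1 and 2 first. Within these first 4 the 5' sum was 8.19 percentage points higher in db/db, and within the last 4 the difference was -25.6 points, 1.92% in db/db against 27.5%. The internal sum was lower in db/db within both, with differences of -3.56 and -2.09 points and without overlap of the genotypes in either. With 2 against 2 libraries the exact permutation p cannot fall below 0.333. The labels do not say what the numbers stand for.

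The region sums of other tRNAs with the pattern closest to the 5' tRNA-Cys-GCA sum were found from the difference of their centred log2 levels over the 8 libraries. The closest was the 5' sum of tRNA-Leu-TAG, with a root mean square difference of 0.52 on the log2 scale, followed by the 5' sum of tRNA-Ala-AGC, tRNA-Ala-CGC and tRNA-Ala-TGC at 0.98. The internal sum of tRNA-Leu-TAG at 1.31, the 5' sum of tRNA-Lys-CTT at 1.44 and the 3' sum of tRNA-Trp-CCA at 1.47 came next. Of the chosen tRNAs, 5' tRNA-Ser-GCT stood at 0.99, 5' tRNA-Phe-GAA at 1.79, and the internal sums of tRNA-Cys-GCA alone, of tRNA-Ser-GCT and of tRNA-Phe-GAA/tRNA-Ser-GGA at 1.89, 2.24 and 2.25. The internal fragment shared by tRNA-Cys-GCA and tRNA-Ala-TGC stood at 2.32. The tRNA-Leu-TAG 5' sum had 4, 8, 478 and 123 counts in wild type, against 235, 4, 5 and 9 in db/db, with the same 3 libraries on top.

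As background for these counts, the 19 5' fragments tested over the whole table had a median log2 fold change of 1.36 with 6 higher in db/db, the 19 internal ones 0.04 with none called and the 6 from the 3' end -1.23 with none called. With all 144 fragments in the fit these medians were 0.33 over 63 5' fragments, -0.21 over 67 internal ones and 0.36 over 14 from the 3' end, so the last 2 changed sign. In that fit the 12 5' fragments of the 4 tRNAs had a median of -1.42 and the 16 internal ones of -0.46. The 5' median largely follows from the choice of these tRNAs. The 8 tested 5' fragments of 28 nt or more had a median of 1.37 with 3 higher. The 16 5' fragments of the table with 4 or more leading guanines included 9 of tRNA-Cys-GCA, and only 2 of the 16 could be tested, with none called.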

How the data were processed

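Small RNA libraries of 8 islet macrophage preparations were compared. The authors removed adapters, collapsed identical reads by molecular identifier, and kept reads that matched mature mouse tRNAs perfectly (GRCm38.p6 among their references), which loses reads with a base misread at a modification, so different tRNAs cannot be ranked by level. The deposited counts are whole counts per fragment and library. Only the names, sequences and whole counts of the deposited data were used, not the log2 values normalised by the authors. Matches to other transcripts came from a search of the GENCODE M21 transcript sequences.

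The 242 rows were collapsed to 144 distinct sequences. Positions were counted back from the conserved bases at positions 8 to 10. Fragments ending in CCA were called 3', others starting at position 1 or 2 were called 5', and the rest internal. Fragments listed only under mitochondrial tRNAs were called 5' without a check of position. They are not among the fragments described here but are part of the 5' fragments of the whole table. Counts were tested with edgeR 4.0.16 in R 4.3.3 (quasi-likelihood test, TMM, filterByExpr with a minimum count of 10 and total of 15, Benjamini-Hochberg adjustment over all fragments or sums). Each SE given with an edgeR value is the absolute log2 fold change over the square root of the test's F statistic. DESeq2 1.42.0 was an alternative, with no count filter beforehand but with its default independent filtering and outlier handling. A fragment or sum left without an adjusted p there counted as not called. Shares, log2 ratios (pseudocount 0.5) and lengths were compared by exact permutation over 70 assignments (Python 3.11.15, scipy 1.17.1). The likeness used log2 of CPM plus 100, over sums of at least 40 counts. Named fragments were up to 3 5', 2 internal and 1 3' fragments per tRNA with the highest counts, plus any called, and each sum. Fragments named outside this rule (the 19-nt 5' Cys-GCA form, the Cys-GCA fragment from position 3 and the internal Phe-GAA/Ser-GGA fragment from position 7) were picked after their values were seen. The tools were tested on simulated data. Alternatives were other size factors, other filters, a library-number term, other region definitions and leaving libraries out. The members and lists were chosen with earlier results of these data known. Each p-value sets a genotype difference against the spread between pooled preparations and does not speak for the spread between single mice.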

Additional observations from a re-analysis of the deposited data

Results flagged for a closer look

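A value was looked at again when the highest or lowest of the 4 libraries of a genotype lay far from the other 3, by Dixon's ratio of the gap to the whole range at the 95% level. Of 54 such checks 8 passed, all of 5' ends in db/db and all through db/db 1. Chance flags about 1 in 20 groups, but these tRNAs were chosen because their 5' counts rise together in some libraries, db/db 1 among them, so the flags restate that choice and are no evidence for it. The fragments are also parts of the sums. For the 5' sum of the 4 tRNAs the ratio was 0.946, with db/db 1 at 18.4% of listed counts. It was 0.912 for the 5' tRNA-Cys-GCA sum (14.8%), 0.860 for the 5' tRNA-Ser-GCT sum (2.90%) and 0.908 for the 5' tRNA-Phe-GAA sum (0.635%), which is also its only fragment and so counted a second time at 0.908. It was 0.898 and 0.942 for the tRNA-Cys-GCA fragments of 22 and 23 nt (2.54% and 3.77%) and 0.937 for the tRNA-Ser-GCT fragment of 18 nt (2.38%). No internal sum, ratio or mean length passed.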

How the results depend on the processing

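No fragment or sum of the 4 tRNAs was called under any setting run except those without db/db 1 (1 fragment, 4 sums) and without wild type 3, wild type 4 and db/db 1 together (2 fragments, 1 sum). Leaving out 1 library at a time thus gave 0 to 1 fragments and 0 to 4 sums. Over the whole table the 6 called fragments became 0 with library totals or with a library-number term, 11 without a filter, 16 with DESeq2, 27 without the 3 libraries and 0 to 21 without 1 library. The 1 called sum became 3 without a filter, 2 with the stricter filter, 5 with DESeq2, 14 without the 3 libraries and 0 to 16 without 1 library. The library-number term changed no call of the 4 tRNAs. Library totals moved the median log2 fold change of all fragments from 0.06 to -0.11, and all 6 tested fragments of the 4 tRNAs lay below that median with each scaling.

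Differences near 0 changed sign. The internal tRNA-Ser-GCT fragment from position 7 ran from -0.24 to 0.23 without 1 library and was 0.0395 without the 3 libraries. That from position 8 was -0.19 with library totals, -0.15 with RLE size factors, -0.16 with DESeq2, -0.23 without the 3 libraries and -0.22 to 0.20 without 1 library. The internal tRNA-Phe-GAA/tRNA-Ser-GGA fragment from position 8 ran from -0.72 to 0.0833 without 1 library.

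Within the first 4 library numbers the share difference was 8.19 points for the 5' sum, 6.91 for 5' tRNA-Cys-GCA, 1.23 for 5' tRNA-Ser-GCT, 0.0444 for 5' tRNA-Phe-GAA and 0.0755 for internal tRNA-Cys-GCA, and the log2 ratio difference 2.13 for all, 1.83 for tRNA-Cys-GCA and 1.80 for tRNA-Ser-GCT. Without the 3 libraries the share difference was 0.0448 for the 5' sum and 0.449 for 5' tRNA-Cys-GCA, the log2 fold change of the 5' tRNA-Cys-GCA sum 0.68, and the log2 ratio difference 1.23 for all, 1.73 for tRNA-Cys-GCA and 0.28 for tRNA-Ser-GCT. The tRNA-Cys-GCA ratio difference was 0.0252 with fragments of these names alone and 0.0805 with 5' ends from position 1 only.

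Without 1 library the share difference ran from -13.0 to -4.09 points for the 5' sum and from -4.00 to -1.61 for the internal sum. The log2 ratio difference ran from -1.45 to 0.33 for all and from -1.04 to 0.73 for tRNA-Cys-GCA, and the mean length difference from -0.425 to 0.137 nt for tRNA-Cys-GCA. The causes were not tested. Counting the position 3 fragment as 5', chosen after the data were seen, changed no call. No paired analysis was possible because the replicate numbers are in accession order.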
